A study of Mus musculus with 6 samples.

Results

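The solute carriers are membrane proteins that move amino acids, sugars, ions, metals, vitamins and mitochondrial metabolites down or against their gradients, often by coupling to sodium or protons. In macrophages they supply amino acids and glucose for activation, recycle solutes out of lysosomes that have digested engulfed material, and handle the metals that are withheld from or used against microbes. Many sit in the plasma membrane, while others serve lysosomes, the Golgi, the endoplasmic reticulum or the inner mitochondrial membrane. The genes described here were taken from the deposited FPKM table (fragments per kilobase of gene length and per library size) as protein-coding genes whose symbol has the form Slc, number, a, number and whose mean over the 6 libraries was at least 5 FPKM. They were thus selected on their mean FPKM and their symbol, after some names had been left out. The difference between groups was not part of this rule. The members were chosen with earlier results of these data known, however, so the choice was not blind to that difference. Of 56748 genes in the table, 348 had such a symbol and 100 met the rule. Another 6 with a mean of at least 5 FPKM were left out by name, 47 lay between 1 and 5 FPKM and 193 lay under 1 FPKM, 64 of these at 0 in every library. Members of families with other subtype letters, such as the Slc35b genes, are not covered. Among the 100, Slc7a6os, Slc4a1ap and Slc9a3r1 share the symbol form but are named for a neighbouring or partner carrier gene and are not carriers themselves.

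Libraries came from RAW264.7, a mouse macrophage-like line derived from a virus-induced tumour. Cells had been infected with lentivirus that carried Fbxw11 in the construct pMSCV-Fbxw11-pGk-GFP (3 libraries) or with control vector virus (3 libraries, named for GFP), and were sorted before RNA was taken, per the labels. Fbxw11 encodes a subunit through which an SCF-type ubiquitin ligase recognises its targets. No stimulus is given in the labels, and nothing in them says whether the 3 libraries of a group were separate infections or cultures, or whether a line was a single clone, so p-values reflect how much these libraries vary, and that variation may be technical.

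Recovered reads numbered 16191971 to 18951653 per library. Fbxw11 stood at 35.8 to 36.5 FPKM in control and 268 to 274 FPKM in Fbxw11 libraries, where vector and endogenous transcripts cannot be told apart. Of 10 macrophage markers 9 were tested, 5 rose (among them Adgre1, Itgam and Lyz2) and Mertk was near 0 in these cells. Over all tested genes 4.6% rose, and among protein-coding genes averaging at least 5 FPKM 6.34% rose. Summed levels of the markers of other cells were 4.77 to 6.10 FPKM for T cells, almost all of it Lck, 5.45 to 8.04 FPKM for B cells, 2.80 to 5.66 FPKM for neutrophils, all of it S100a8, and under 0.31 FPKM for fibroblast, epithelial and NK cell markers. The osteoclast markers Acp5 and Ctsk were present, at a summed 11.97 to 13.3 FPKM for the list in control and 8.23 to 9.56 FPKM in Fbxw11 libraries, and Acp5 fell. Their part in the results below was not tested. In bulk RNA, fewer cells of a type and less RNA per cell cannot be told apart.

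Each of the 100 genes passed the filter for testing (mean of at least 1 FPKM). Between 171 and 26538 reads per library lay behind each value. The threshold was limma's adjusted p of 0.05 over all 10898 genes tested, and "rose" and "fell" are used of genes past it, higher or lower in Fbxw11 libraries. Where a pair of means is given, the control group comes first. Of the 100 genes, 9 passed, 8 upward and 1 downward. The same test called 9.24% of all tested genes and 11.5% of protein-coding genes averaging at least 5 FPKM, so the count lies near the background and the carriers as a whole did not stand out by number. By direction, 8 rises and 1 fall stand beside background shares of 4.6% and 4.64% over all tested genes, and 6.34% and 5.12% over the more abundant protein-coding genes. An unadjusted p under 0.05, given for some groups below, was found for 32 of the 100 genes. It was found for 2680 of all 10898 tested genes and 1891 of the 6432 protein-coding genes averaging at least 5 FPKM. None of the 9 reached an absolute log2 difference of 1, and the largest was 0.60 on the log2(FPKM + 1) scale.

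The 9 genes were Slc15a3, Slc3a2, Slc38a1 and Slc36a1 among amino acid and peptide carriers, the hexose carrier Slc2a6, the copper and zinc carriers Slc31a2 and Slc30a7, the sodium-proton exchanger Slc9a4, and, as the member that fell, the sugar-phosphate exchanger Slc37a2. Upstream sequence from RefSeq (build GRCm38.p6, the 250 bases before the start) was matched by symbol to 74 of the 100 genes and to 6 of the 9. The start is that of a RefSeq transcript, and for Slc31a2 it lies inside the longer gene span of the GENCODE annotation given with its values. Sequence is shown for Slc2a6, the largest rise with an entry, for Slc37a2, the fall, and for Slc36a1 and Slc31a2, because these promoters show how a searched motif lies in a member that changed. Capitals mark a match on either strand to GAGGAA (the core bound by PU.1, the macrophage lineage factor), CACGTG (the E-box bound by TFEB and related factors of lysosomal genes), TGATGNAA (the amino acid response element) or TGCACNC and TGCGCNC (the metal response element). Sequences run 5′ to 3′ on the strand of the gene.
Slc2a6, chr2:27027999-27028248, minus strand: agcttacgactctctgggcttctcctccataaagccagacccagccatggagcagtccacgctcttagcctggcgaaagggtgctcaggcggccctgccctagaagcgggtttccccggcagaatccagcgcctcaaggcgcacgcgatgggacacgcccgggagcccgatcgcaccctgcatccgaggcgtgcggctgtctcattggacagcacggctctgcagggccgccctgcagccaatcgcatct
Slc37a2, chr9:37255739-37255988, minus strand: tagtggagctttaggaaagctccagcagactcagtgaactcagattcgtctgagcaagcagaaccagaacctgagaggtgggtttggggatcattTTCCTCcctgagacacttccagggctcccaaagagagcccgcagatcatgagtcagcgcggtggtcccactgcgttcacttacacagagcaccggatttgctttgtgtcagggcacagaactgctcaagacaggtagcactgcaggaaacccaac
Slc36a1, chr11:55204090-55204339, plus strand: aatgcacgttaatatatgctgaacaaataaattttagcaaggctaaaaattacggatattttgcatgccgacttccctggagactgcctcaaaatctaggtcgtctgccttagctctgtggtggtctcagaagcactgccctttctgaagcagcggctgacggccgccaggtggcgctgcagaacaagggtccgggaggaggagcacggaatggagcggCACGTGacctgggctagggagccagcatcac
Slc31a2, chr4:62286179-62286428, plus strand: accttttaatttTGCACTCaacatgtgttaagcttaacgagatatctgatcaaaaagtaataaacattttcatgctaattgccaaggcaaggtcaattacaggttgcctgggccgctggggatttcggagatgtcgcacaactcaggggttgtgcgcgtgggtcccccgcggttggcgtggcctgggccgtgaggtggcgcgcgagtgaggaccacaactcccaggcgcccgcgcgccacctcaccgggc
The Slc2a6 window held none of these motifs. The Slc37a2 window held GAGGAA once, read on the opposite strand, a motif found in 23.3% of all 32851 promoter windows of this length in the table and in 20.4% of those of member genes. In Slc36a1 CACGTG began 31 bases before the start, a motif found in 6.02% of all windows and in 12.96% of the 108 windows of member genes. The Slc31a2 window held TGCACNC, found in 10.4% of all windows and 10.2% of member windows. The TGATGNAA motif was in none of the 6 matched genes that changed (3.45% of all windows, 2.78% of member windows). TGCGCNC was also in none of the 6, in 12.5% of all windows and in 18.5% of member windows. These matches describe letters in the windows and are no measure of binding. Windows of member genes had a median GC content of 60.8% (108 windows), beside 52.4% over all.

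Levels spread widely among the 100 genes, and this is a description, since the level chose them. Mean FPKM ran from 5.17 to 289 with a median of 11.8, with 7 genes at 100 FPKM or more, 56 from 10 to 100 and 37 under 10. The 10 most abundant genes held 49.7% to 49.9% of the members' summed FPKM in control and 51.1% to 51.6% in Fbxw11 libraries. They were Slc25a5 (289 FPKM), Slc3a2 (282), Slc6a12 (201), Slc38a2 (156), Slc15a3 (155), Slc7a5 (147), Slc27a1 (111), Slc1a5 (90.5), Slc7a1 (70.9) and Slc23a2 (69.1). The class of amino acid and peptide carriers, set by gene family, thus held 7 of the 10 places. Just inside the limit lay Slc15a4 (5.23), Slc52a2 (5.19) and Slc19a2 (5.17), and just outside it Slc25a43 (4.99), Slc25a16 (4.79) and Slc16a13 (4.77). The members summed to 2990 to 3057 FPKM in control and 3154 to 3236 FPKM in Fbxw11 libraries, 1.03% to 1.06% and 1.05% to 1.09% of all FPKM. Those groups do not overlap in summed FPKM but do as a share of all FPKM.

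**Figure D1:**
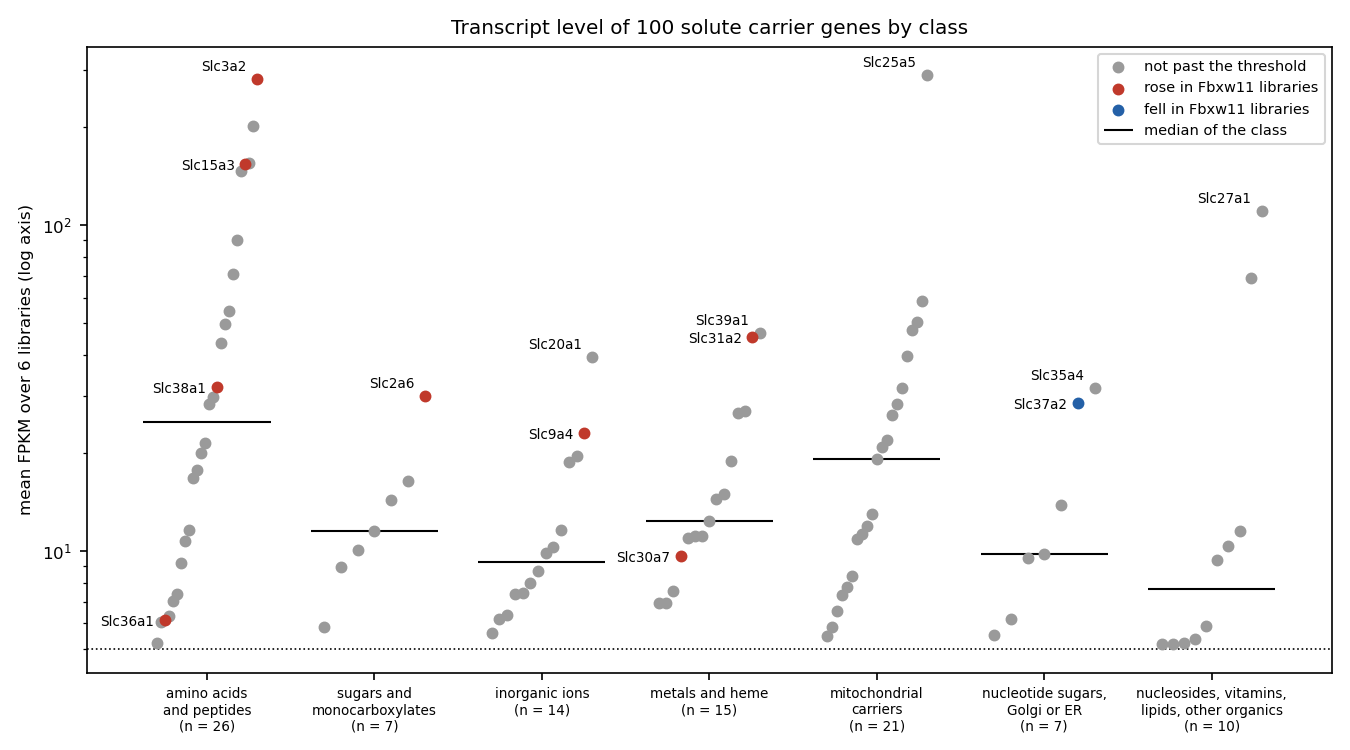
Mean FPKM over the 6 libraries (vertical log axis) for the 100 solute carrier genes in 7 functional classes, 1 point per gene, with the class median as a line and the limit of 5 FPKM dotted. Red points rose and the blue point fell in Fbxw11 libraries. The amino acid and peptide class has the highest median (24.9 FPKM), and genes that changed lie at both high and low levels.

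Spread within a group was small. The median coefficient of variation over 3 libraries was 3.19% in control and 4.11% in Fbxw11 libraries. The most variable member in both groups was Slc6a13, a GABA and taurine carrier, at 14.2% and 17.7%, with control library 3 (15.8 FPKM) and Fbxw11 library 3 (16.8 FPKM) below the other 4 libraries (20.3 to 23.7 FPKM). In a principal component analysis of the 100 genes, component 1 (58.8% of variance) placed the 3 control libraries on one side and the 3 Fbxw11 libraries on the other. The next held 15.8% and set library 3 of each group apart from the rest, as it did over all tested genes.

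Amino acid and peptide carriers were the largest class, with 26 genes (Slc7a6os counted here by its symbol), of which 4 rose and 0 fell. Classes were set by family number, so some genes carry other solutes, such as Slc6a8 and Slc17a9 below. Counts of this and the other classes stand beside 6.34% risen and 5.12% fallen among protein-coding genes averaging at least 5 FPKM. Most classes are small, so 1 call changes their share strongly. Voom, which fits the recovered reads, called 4 rises and 3 falls here, the falls being Slc6a8, Slc38a6 and Slc43a3. Over all 10898 tested genes voom called 519 rises and 1040 falls. Slc15a3 changed most. It encodes a proton-coupled carrier that moves histidine and short peptides, including bacterial cell wall fragments, out of endolysosomes (ENSMUSG00000024737, chromosome 19, 10839727 to 10859362 in GRCm38). It stood at 122, 119 and 129 FPKM in control libraries 1 to 3 and at 193, 184 and 182 FPKM in Fbxw11 libraries 1 to 3. Every Fbxw11 library lay well above every control library. The mean rose from 123 ± 5.08 to 186 ± 6.02 FPKM (SD, n = 3 each), 1.51-fold, with a log2 difference of 0.60 (SE 0.043, limma adjusted p = 0.00102). On the opposite strand, Tmem132a overlaps the locus and went from 4.90 ± 0.343 to 8.39 ± 0.369 FPKM. The sources used here do not say whether counting used strand, and reads of the overlap cannot be told apart. The close relative Slc15a4, which serves endolysosomes too and is needed for responses of Toll-like receptors there, was at 4.94 ± 0.560 and 5.51 ± 0.348 FPKM in control and Fbxw11 libraries (log2 difference 0.14, 95% interval -0.05 to 0.32, adjusted p = 0.341).

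Slc3a2, the CD98 heavy chain, carries several amino acid exchangers to the plasma membrane (ENSMUSG00000010095, chromosome 19, 8706882 to 8723369). Control libraries held 261, 262 and 268 FPKM and Fbxw11 libraries 307, 297 and 295 FPKM. The groups did not overlap, and the rise was 1.14-fold (log2 difference 0.19, SE 0.031, adjusted p = 0.0161). Its light chains among the members did not pass. Slc7a5, the large neutral amino acid exchanger LAT1, was at 142 ± 5.33 and 152 ± 3.51 FPKM (log2 difference 0.10, adjusted p = 0.179). Slc7a6 was at 18.3 ± 0.528 and 17.2 ± 0.766 FPKM (adjusted p = 0.311). Slc7a7, which exports cationic amino acids, was at 6.58 ± 0.298 and 7.43 ± 0.112 FPKM (adjusted p = 0.0857). In FPKM, a per-length scale, the heavy chain was thus more abundant than each of these light chains in every library.

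Slc38a1, a sodium-coupled carrier of glutamine and other neutral amino acids (ENSMUSG00000023169, chromosome 15, 96571418 to 96642913), was at 30.2, 29.4 and 30.2 FPKM in control and 34.3, 34.1 and 33.2 FPKM in Fbxw11 libraries. It rose 1.13-fold (log2 difference 0.17, SE 0.032, adjusted p = 0.0218). Slc36a1, the proton-coupled exporter of small amino acids from lysosomes (ENSMUSG00000020261, chromosome 11, 55204350 to 55236330), lay near the lower limit of the set. It was at 5.45, 5.80 and 5.42 FPKM in control and 6.83, 6.49 and 6.95 FPKM in Fbxw11 libraries, a 1.22-fold rise (log2 difference 0.24, SE 0.046, adjusted p = 0.0240). Both genes had groups that did not overlap. For each, a relative of the same family gave other values. Slc38a2, the starvation-induced neutral amino acid carrier, was at 156 ± 1.99 and 155 ± 3.99 FPKM (log2 difference -0.02, 95% interval -0.09 to 0.06) and Slc36a4 at 17.2 ± 0.470 and 16.4 ± 1.08 FPKM (log2 difference -0.07). No test of the difference between relatives was run.

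Several other genes of the amino acid and peptide class missed the threshold. Slc7a1, the main arginine importer, was at 68.3, 68.4 and 66.4 FPKM in control and 75.5, 72.7 and 74.2 FPKM in Fbxw11 libraries (log2 difference 0.13, adjusted p = 0.0506). Its groups do not overlap, and it passed where only genes averaging at least 5 FPKM were tested (adjusted p = 0.0446). Slc6a12, the carrier of betaine and GABA, was at 194 ± 4.71 and 209 ± 9.28 FPKM (adjusted p = 0.189). Slc1a5, a glutamine exchanger, was at 92.3 ± 1.24 and 88.7 ± 1.58 FPKM (adjusted p = 0.303), and the taurine carrier Slc6a6 at 54.6 ± 0.631 and 54.9 ± 1.496 FPKM (adjusted p = 0.931). The creatine carrier Slc6a8 was at 51.998 ± 1.18 and 47.5 ± 1.936 FPKM (adjusted p = 0.102), and Slc38a7, which exports glutamine from lysosomes, at 41.4 ± 1.02 and 45.8 ± 1.98 FPKM (adjusted p = 0.0860). Slc17a9, which loads ATP into vesicles, was at 5.42 ± 0.542 and 6.68 ± 0.287 FPKM (log2 difference 0.26, adjusted p = 0.0680). Groups did not overlap for 16 of the 26 amino acid and peptide genes (12 higher and 4 lower in Fbxw11 libraries), beside 31.1% of all tested genes and 35.4% of protein-coding genes averaging at least 5 FPKM. The class median log2 difference was 0.09, and 0.05 on the TPM scale or over plain read sums.

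**Figure D2:**
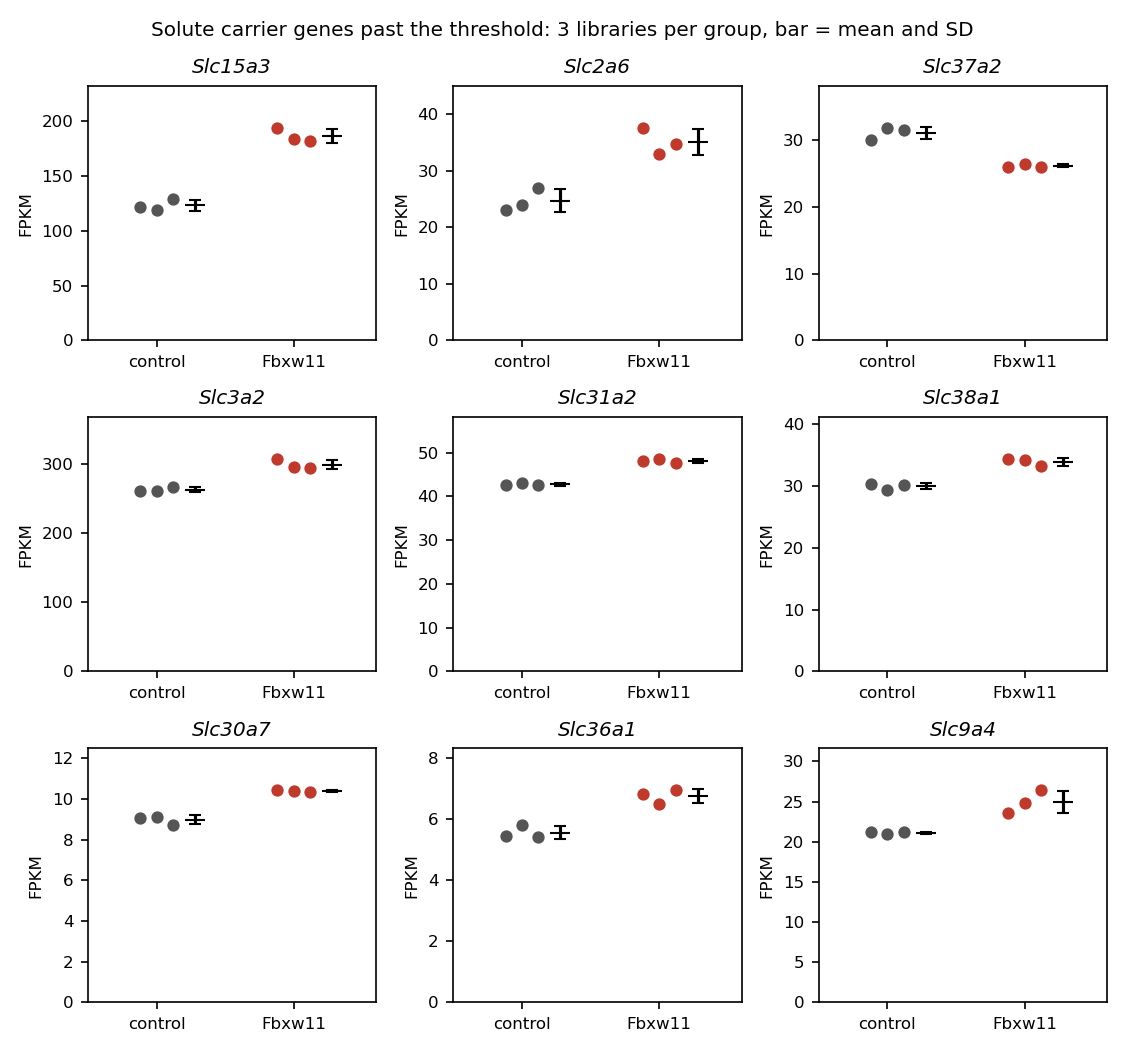
FPKM in each of 3 control (grey) and 3 Fbxw11 (red) libraries for the 9 solute carrier genes past the threshold, with the mean and SD of each group beside the points and every axis starting at 0. Slc15a3 and Slc2a6 show the widest gaps, and Slc37a2 is the gene that is lower in Fbxw11 libraries.

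Sugar and monocarboxylate carriers numbered 7, of which 1 rose and 0 fell. Slc2a6 encodes GLUT6, a hexose carrier of the glucose transporter family found in lysosomal membranes (ENSMUSG00000036067, chromosome 2, 27021363 to 27027998). Control libraries held 23.1, 23.9 and 27.0 FPKM and Fbxw11 libraries 37.5, 33.02 and 34.8 FPKM. The highest control library was below the lowest Fbxw11 library. The mean rose from 24.7 ± 2.03 to 35.1 ± 2.24 FPKM, 1.42-fold (log2 difference 0.49, SE 0.070, adjusted p = 0.00925). Slc2a3, the glucose carrier GLUT3, was at 8.70 ± 0.0445 and 9.19 ± 0.264 FPKM (log2 difference 0.07, adjusted p = 0.298). Slc50a1, a sugar carrier linked to the Golgi, was at 15.96 ± 0.302 and 16.8 ± 0.578 FPKM (adjusted p = 0.328). The monocarboxylate family members Slc16a6 (14.6 ± 0.128 and 14.1 ± 0.190 FPKM), Slc16a10, an aromatic amino acid carrier (11.7 ± 0.311 and 11.4 ± 0.143 FPKM), and Slc16a12, a creatine carrier (5.92 ± 0.264 and 5.79 ± 0.576 FPKM), did not pass. Neither did the myo-inositol carrier Slc5a3 (10.6 ± 0.530 and 9.62 ± 0.210 FPKM, adjusted p = 0.167), which fell with voom. Mrps6 overlaps the Slc5a3 locus on the same strand, at 24.2 ± 0.733 and 22.7 ± 1.06 FPKM, and reads of the overlap cannot be told apart.

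Metal and heme carriers numbered 15, of which 2 rose and 0 fell. Slc31a2, which encodes CTR2, a copper carrier of late endosomes and lysosomes (ENSMUSG00000066152, chromosome 4, 62262562 to 62298411), had the smallest standard error of the 9 genes. It was at 42.6, 43.01 and 42.6 FPKM in control and 48.02, 48.5 and 47.6 FPKM in Fbxw11 libraries, a 1.12-fold rise (log2 difference 0.16, SE 0.028, adjusted p = 0.0164). Slc31a1, the copper importer of the plasma membrane, was at 26.5 ± 0.290 and 26.6 ± 0.725 FPKM (log2 difference 0.01, 95% interval -0.07 to 0.09). Slc30a7, which fills the Golgi with zinc (ENSMUSG00000054414, chromosome 3, 115938973 to 116007406), was at 9.08, 9.12 and 8.73 FPKM in control and 10.4, 10.4 and 10.3 FPKM in Fbxw11 libraries. It rose 1.16-fold (log2 difference 0.19, SE 0.036, adjusted p = 0.0225). The other 4 zinc exporters of family 30 did not pass, with log2 differences from -0.05 (Slc30a9) to 0.09 (Slc30a5). None of the 6 zinc importers of family 39 passed the limma test either (1 at an unadjusted p under 0.05), from Slc39a10 (15.03 ± 0.186 and 13.9 ± 0.218 FPKM, adjusted p = 0.0991) to Slc39a9 (10.6 ± 0.0682 and 11.4 ± 0.403 FPKM, adjusted p = 0.207). Slc39a10 fell on the TPM scale, over plain read sums and with voom. Slc48a1, which returns heme from phagolysosomes, was at 19.5 ± 0.445 and 18.3 ± 1.78 FPKM (adjusted p = 0.477).

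The inorganic ion class held 14 genes (Slc4a1ap and Slc9a3r1 counted among them by their symbols), of which 1 rose and 0 fell. Slc9a4, a sodium-proton exchanger (ENSMUSG00000026065, chromosome 1, 40580081 to 40630725), was at 21.2, 20.9 and 21.2 FPKM in control and 23.6, 24.8 and 26.4 FPKM in Fbxw11 libraries. The Fbxw11 libraries spread more widely than the controls and all lay above them, a 1.18-fold rise (log2 difference 0.23, SE 0.045, adjusted p = 0.0274). The phosphate importer Slc20a1 was at 38.8 ± 1.06 and 40.1 ± 0.799 FPKM (adjusted p = 0.466). Slc24a5, a potassium-dependent sodium-calcium exchanger known from pigment cells, was at 19.9 ± 2.14 and 19.2 ± 0.656 FPKM (adjusted p = 0.802). Myef2 overlaps Slc24a5 on the opposite strand at 24.1 and 23.0 FPKM.

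Carriers of nucleotide sugars and of the Golgi and endoplasmic reticulum numbered 7, of which 0 rose and 1 fell. Slc37a2, which exchanges sugar phosphates for phosphate in the endoplasmic reticulum and is abundant in macrophages (ENSMUSG00000032122, chromosome 9, 37227585 to 37255738), was at 30.01, 31.7 and 31.4 FPKM in control and 26.0002, 26.5 and 25.96 FPKM in Fbxw11 libraries. Every Fbxw11 library lay below every control library. The mean fell from 31.04 ± 0.907 to 26.1 ± 0.275 FPKM (log2 difference -0.24, SE 0.034, adjusted p = 0.00941). Gm10177 overlaps it on the opposite strand, at 22.8 ± 6.99 and 25.5 ± 9.84 FPKM. The related Slc37a3 was at 5.57 ± 0.331 and 5.51 ± 0.492 FPKM (adjusted p = 0.925). Slc35a4 was at 29.5 ± 0.589 and 33.9 ± 2.20 FPKM (log2 difference 0.19, adjusted p = 0.0750) and passed without Fbxw11 library 3 (adjusted p = 0.0206). Slc35a1, Slc35a2 and Slc35a3, which import CMP-sialic acid, UDP-galactose and UDP-N-acetylglucosamine into the Golgi, were at 9.73, 6.18 and 10.2 FPKM in control and 9.35, 6.19 and 9.42 FPKM in Fbxw11 libraries, and did not pass. Slc33a1, the acetyl-CoA importer of the endoplasmic reticulum, was at 13.4 ± 0.721 and 14.3 ± 1.199 FPKM (adjusted p = 0.503).

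None of the 21 members of family 25, classed here as mitochondrial carriers, passed the limma test, while 4 had an unadjusted p under 0.05. Such a p was found for 1891 of the 6432 protein-coding genes averaging at least 5 FPKM. Voom on recovered reads called 2 falls, beside 1040 falls among all 10898 tested genes. The ADP/ATP carriers head the class. Slc25a5 was at 289 ± 4.97 and 289 ± 6.76 FPKM (log2 difference 0.00, 95% interval -0.08 to 0.08, adjusted p = 0.990). Slc25a4 was at 52.98, 54.1 and 52.2 FPKM in control and 49.5, 48.6 and 45.6 FPKM in Fbxw11 libraries (log2 difference -0.15, adjusted p = 0.0759). Its groups do not overlap, and it fell on the TPM scale (adjusted p = 0.0370), over plain read sums (adjusted p = 0.0417) and with voom (adjusted p = 0.0134). The aspartate-glutamate carrier Slc25a13, at 12.03 ± 0.387 and 10.6 ± 0.569 FPKM (adjusted p = 0.0821), fell under the same 3 alternatives and without Fbxw11 library 3. The phosphate carrier Slc25a3 was at 57.5 ± 2.26 and 59.3 ± 0.844 FPKM (adjusted p = 0.509), the glutathione carrier Slc25a39 at 47.5 ± 1.27 and 48.3 ± 4.33 FPKM (adjusted p = 0.874), and the citrate carrier Slc25a1 at 31.5 ± 2.43 and 32.0 ± 2.47 FPKM (adjusted p = 0.881). The mitochondrial iron importers Slc25a37 and Slc25a28 were at 27.5 and 8.29 FPKM in control and 29.0 and 8.48 FPKM in Fbxw11 libraries (adjusted p = 0.268 and 0.810). Some of these carriers have near-identical pseudogene copies, and the sources used here do not say how reads matching several copies were handled.

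None of the 10 carriers of nucleosides, vitamins, lipids and other organic solutes passed the limma test. Voom called 1 fall. An unadjusted p under 0.05 was found for 3, beside 1891 of the 6432 protein-coding genes averaging at least 5 FPKM. Slc27a1, which takes up long-chain fatty acids, was at 106 ± 4.66 and 115 ± 5.57 FPKM (log2 difference 0.12, adjusted p = 0.194). The vitamin C carrier Slc23a2 was at 69.9 ± 1.77 and 68.3 ± 0.535 FPKM (adjusted p = 0.567) and the choline carrier Slc44a1 at 11.9 ± 0.164 and 11.2 ± 0.209 FPKM (adjusted p = 0.185). Slc29a1, the equilibrative nucleoside carrier, had the most negative log2 difference of the 100 genes, at 5.73, 5.32 and 6.65 FPKM in control and 5.15, 4.22 and 4.35 FPKM in Fbxw11 libraries (log2 difference -0.31, SE 0.093, adjusted p = 0.0965). Its spread was wide, and it was the member that fell with voom. The reduced folate carrier Slc19a1, the thiamine carrier Slc19a2 and the riboflavin carrier Slc52a2 were at 10.2, 5.36 and 5.07 FPKM in control and 10.6, 4.99 and 5.31 FPKM in Fbxw11 libraries, and did not pass.

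**Figure D3:**
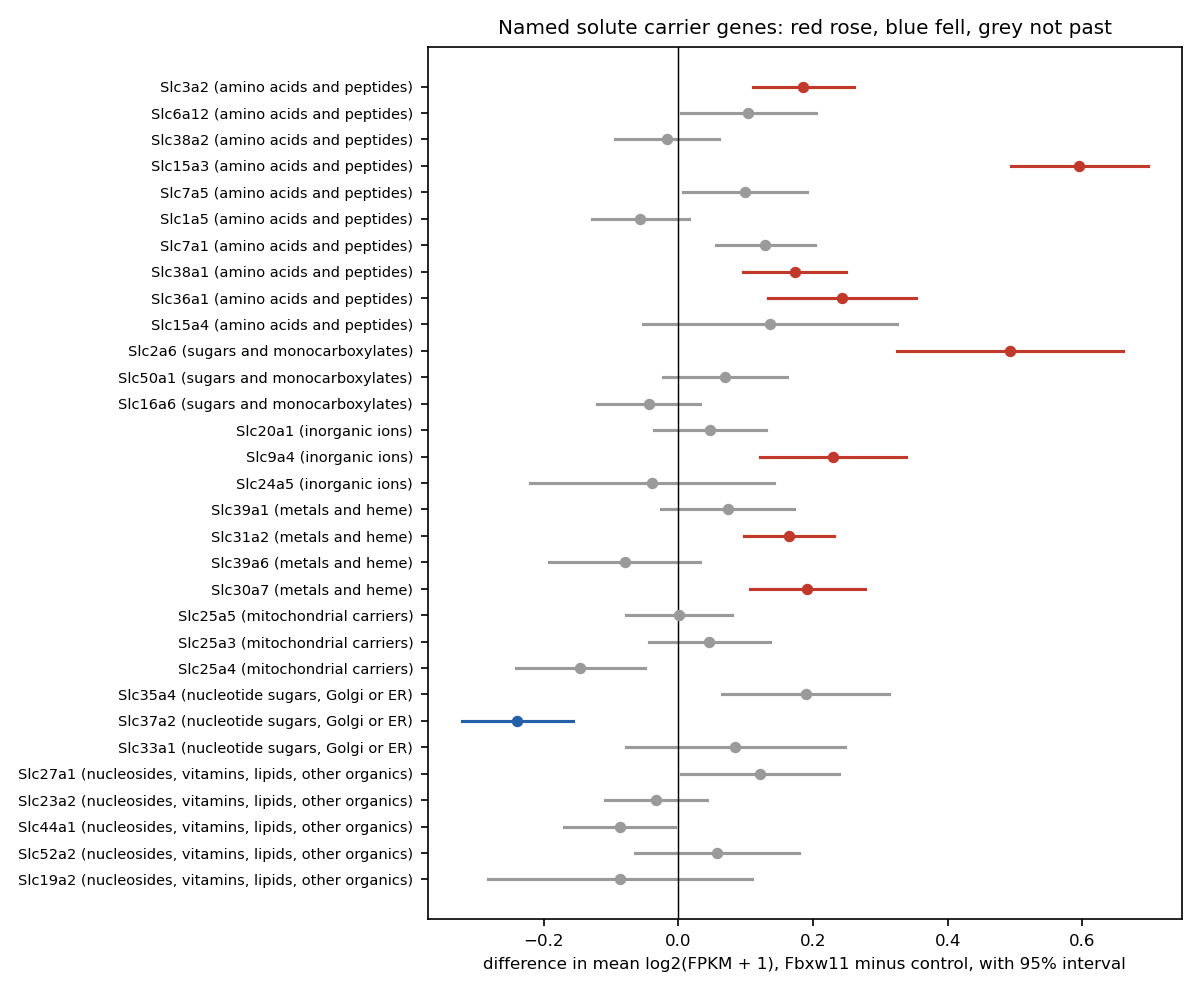
Difference in mean log2(FPKM + 1), Fbxw11 minus control, with its 95% interval from limma (not adjusted for the number of genes) for the 31 genes named by rule, ordered by class and then by level. Red rose, blue fell and grey did not pass. Slc15a3 (0.60) and Slc2a6 (0.49) lie to the right of all others, and Slc25a5 (0.00) is centred on 0.

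Across the whole set, 63 of the 100 genes had a positive and 37 a negative log2 difference on the FPKM scale (median 0.03, beside 0.00 over all tested genes), but 47 were positive and 53 negative on the TPM scale, over plain read sums and with voom. The TPM scale lowered log2 differences of all tested genes by a median of -0.04 and plain read sums by -0.03. Calls shifted with the scale, from 8 rises and 1 fall to 7 and 4 on the TPM scale. They became 8 and 4 over plain read sums and 7 and 9 with voom. Over all 10898 tested genes, rises and falls were 501 and 506 on the FPKM scale and 348 and 712 on the TPM scale. The same counts were 381 and 691 over plain read sums and 519 and 1040 with voom. The 9 genes named above kept their sign under all of these scales. On the FPKM scale, groups did not overlap for 41 of the 100 genes, 27 higher and 14 lower in Fbxw11 libraries. The share was 31.1% over all tested genes. It was 35.4% over the 6432 protein-coding genes averaging at least 5 FPKM (1290 higher and 989 lower). Overlap was not counted on the other scales. Of the 47 Slc genes with a mean between 1 and 5 FPKM, 1 rose and 3 fell, 8.51% beside 9.24% of all tested genes.

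The calls differed in how far they held. Slc15a3 and Slc2a6 passed under each of 15 alternatives, with adjusted p up to 0.0102 and 0.0458. Slc37a2 passed under 14 and missed without control library 2 (adjusted p = 0.0519). Slc3a2, Slc31a2, Slc38a1, Slc9a4, Slc30a7 and Slc36a1 each lost the call under 6 or 7 alternatives, with adjusted p up to 0.104 and the same sign throughout. Leaving out control library 1 or control library 2 lost all 6 of these, and 3 and 2 of the 100 genes then passed. Without control library 3, 6 passed, among them Slc17a9. Without Fbxw11 library 1 or Fbxw11 library 2, 4 passed, and without Fbxw11 library 3, 9 passed. The count over all tested genes fell too, to between 409 and 801.

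**Figure D4:**
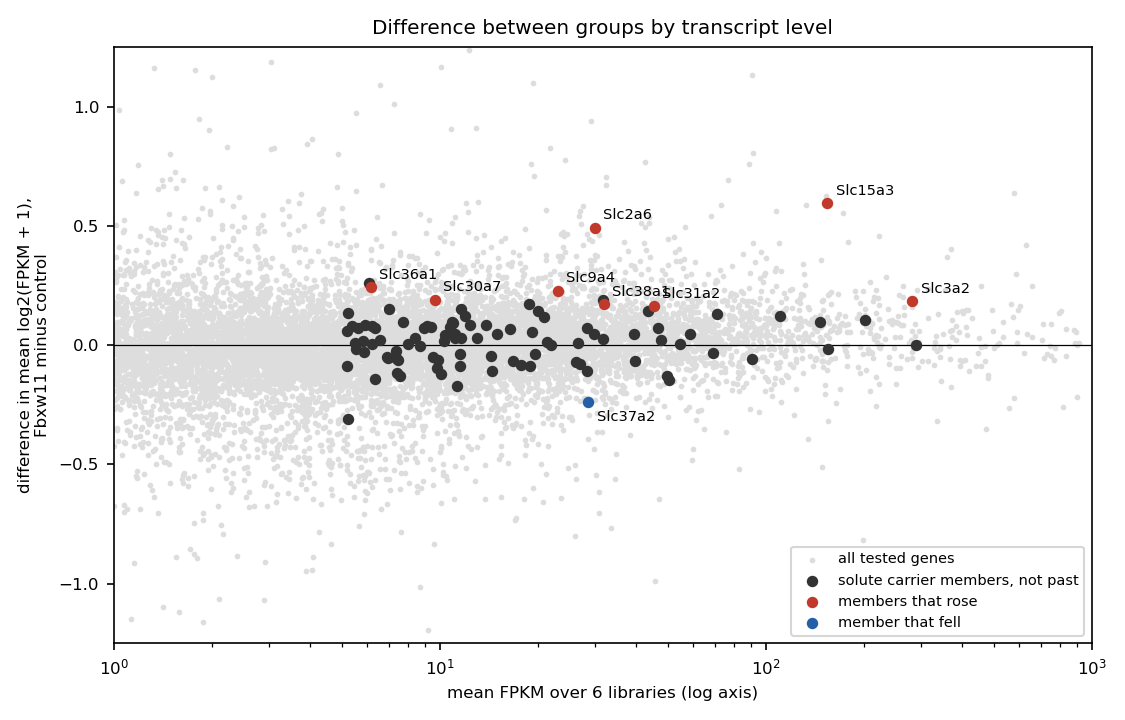
Difference in mean log2(FPKM + 1), Fbxw11 minus control, against mean FPKM on a log axis for all tested genes (pale) and the 100 solute carrier genes (dark, red where they rose, blue where it fell). Genes with larger differences or levels lie outside the frame. Most solute carriers lie near 0, inside the cloud of all genes, and Slc15a3 (0.60) and Slc2a6 (0.49) stand above the other members.

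Transporters under other symbols and genes known to act on carriers were read from the same fit, as lists chosen with earlier results known. Basigin (Bsg), which brings lactate carriers of family 16 to the surface, fell from 123 ± 0.705 to 112 ± 0.461 FPKM (log2 difference -0.13, adjusted p = 0.0290), 1 of 2 tested partners of that family. Of 13 tested carriers with other symbols, 1 rose, Mfsd11 (5.62 ± 0.283 to 6.82 ± 0.0736 FPKM), and 1 fell, the phosphate exporter Xpr1 (7.86 ± 0.232 to 6.75 ± 0.243 FPKM). Of 16 tested ATP-driven transporters 0 rose and 1 fell, the cholesterol exporter Abcg1, while voom called 3 falls. Beside the counts of these lists, limma called 9.24% and voom 14.3% of all tested genes. Neither the 8 tested mitochondrial carriers with other symbols nor the 6 genes listed with the chloride-proton exchangers held a call by limma or voom. In each list 1 gene had an unadjusted p under 0.05, beside 2680 of all 10898 tested genes. Median log2 differences of these lists lay between -0.09 and 0.06, beside 0.00 over all tested genes.

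Among regulators, 2 of 12 tested genes of amino acid sensing at the lysosome rose and 0 fell. They were Flcn, the folliculin gene (15.98 ± 0.763 to 19.2 ± 0.566 FPKM, log2 difference 0.25, adjusted p = 0.0204), and the GTPase gene Rraga (43.5 ± 0.317 to 49.4 ± 1.65 FPKM, log2 difference 0.18, adjusted p = 0.0257). Of 9 genes of the response to amino acid shortage 1 rose, the asparagine synthetase gene Asns (190.4 ± 2.39 to 212 ± 7.29 FPKM, log2 difference 0.15, adjusted p = 0.0461). None of the metal-response genes Mt1, Mt2 and Mtf1 (1 at an unadjusted p under 0.05) or of Nfe2l2, Hif1a and Myc (0 at an unadjusted p under 0.05) passed the limma test. With voom, 1 metal-response gene fell, 0 of the other 3 passed, 3 genes of amino acid shortage rose and 1 of lysosomal sensing rose. Over all tested genes 9.24% were called by limma and 14.3% by voom, and 2680 of 10898 had an unadjusted p under 0.05.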

How the data were processed

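RNA sequencing of 6 RAW264.7 libraries (3 control, 3 Fbxw11) gave 1 deposited table of FPKM values, which the authors scaled by gene length and library size. Per the submitters' processing notes the build is mm10. For aligner, counting tool, annotation release, filters and strand, nothing is stated (not given in the sources used here). FPKM times gene length gave whole multiples of 1 step per library (100% of values within 0.02 reads), so reads were recovered. The library sizes the authors divided by were 1.014 to 1.018 times the read sums in control and 0.987 to 0.993 times in Fbxw11 libraries, which raised FPKM in the latter relative to plain sums.

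Values were analysed as log2(FPKM + 1) with limma 3.58.1 in R 4.3.3 (two-sided, lmFit and trended eBayes, group as the single term). All 10898 genes averaging at least 1 FPKM were fitted, with Benjamini-Hochberg adjustment over all of them and a threshold of 0.05. With the added 1, changes of weakly expressed genes come out too small. FPKM carry the SD (n = 3 libraries), log2 differences the standard error. Voom on recovered reads was an alternative. The procedure was tested on simulated data, with changes larger than most of those called here. That test says nothing on calls smaller than its changes. Gene coordinates are those of GENCODE M21 (GRCm38), joined by Ensembl identifier, since the build of the coordinates in the table was not established.

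Members, classes and lists were chosen with earlier results of these data known, and motifs after the values were seen. Named genes are every member past the threshold, the 10 most abundant, the 3 most abundant of each class and the 3 on either side of 5 FPKM. Others named were chosen after their values were seen.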

Additional observations from a re-analysis of the deposited data

How the results depend on the processing

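Over 15 alternatives, the 31 genes named by rule kept their side of the threshold and direction in 412 of 465 values. Calls were gained in 5 values and lost in 40. All the losses were among the 9 genes past the threshold, each read under 15 alternatives. Signs turned in 8 values, all for genes that had not passed. Slc25a5 turned to -0.042 on the TPM scale, -0.036 over plain read sums and -0.037 with voom, and ran from -0.014 to 0.019 with single libraries left out. With single libraries left out, Slc38a2 ran from -0.033 to 0.0036 and Slc24a5 from -0.11 to 0.034, turning without Fbxw11 library 1 and control library 3. The 9 solute carrier calls (8 rises, 1 fall) became 16 with voom, with 9 falls, and falls numbered 4 on the TPM scale and 4 over plain read sums. Library sizes in these 3 differ from those the authors used. With no filter on low values, which tests 25297 genes, 5 rose. Voom called 1559 of all tested genes and no filter 596, beside 1007. Leaving out 1 library gave 2 to 9 solute carrier calls, with 2 to 7 rises and 0 to 2 falls, and 409 to 801 calls over all tested genes, from fewer samples. A pseudocount of 0.1, median-of-ratios scaling and no trend each left the same 9 genes called. Median-of-ratios scaling shifted log2 differences of all tested genes by a median of only -3.0e-07. It was thus hardly a different scale from the deposited FPKM, and its agreement is no separate check.

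With the replicate number as a block, 3 solute carrier genes passed (2 rises, Slc15a3 and Slc2a6, and Slc37a2) and 621 of all tested genes. Deviations of same-numbered libraries correlated at 0.036, 0.041 and 0.19, and not every library correlated best with its own number, so the libraries share a number and no pairing was assumed. Differences of about 0.05 on the log2 scale equal the median standard error of these genes (0.046) and could not be resolved with 3 libraries a group. The smallest difference that passed was 0.16 (Slc31a2), so a gene that did not pass may still differ by more than 0.05.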
